A study of Mus musculus with 18 samples.

Results

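The Cyp2c genes encode a subfamily of cytochrome P450 enzymes of the mouse liver, and 10 of them, Cyp2c29, Cyp2c37, Cyp2c38, Cyp2c39, Cyp2c40, Cyp2c44, Cyp2c50, Cyp2c54, Cyp2c55 and Cyp2c70, are described here out of 23532 genes in the table. They were chosen by name, and each is represented by its RefSeq row with the highest mean over all libraries. The 18 liver libraries came from wild-type C57BL/6J mice, 3 in each of 6 groups. These were HF+CR, HF+Ex and HF on the HF diet, and LF+CR, LF+Ex and LF on the LF diet, where CR and Ex are added treatments and the labels give abbreviations only. Treatment began at 5 weeks of age in all groups and liver was taken at 62 weeks, so every comparison is between long-treated animals of 1 age. The labels give neither the sex of the mice nor whether each library is 1 animal, so p-values measure the spread between these samples, which may be technical.

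Cyp2c enzymes sit in the endoplasmic reticulum, take electrons from the P450 reductase encoded by Por, and oxidise arachidonic acid, other fatty acids, retinoids, steroids and drugs. Cyp2c29, Cyp2c37, Cyp2c38, Cyp2c39, Cyp2c44, Cyp2c50 and Cyp2c54 make epoxides or hydroxy acids from arachidonate, Cyp2c39 can also hydroxylate retinoic acid, and Cyp2c40 and Cyp2c55 make hydroxy acids. Cyp2c70 is the mouse enzyme that turns chenodeoxycholic acid into muricholic acids. Several of the genes respond to the nuclear receptors CAR (Nr1i3) and PXR (Nr1i2), need HNF4 alpha, and differ between male and female liver through growth hormone.

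All 10 genes lie on chromosome 19 of GRCm38.p6. Of these, 9 form a cluster between Cyp2c55, which begins at 39006940, and Cyp2c70, which ends at 40187286. Cyp2c44, listed under the symbol Cyp2c23 in the RefSeq table, lies apart at 44005022 to 44029256. The RefSeq span of Cyp2c38 (39389556 to 39463103) falls inside that of Cyp2c39 (39347346 to 39569568), and the 2 genes are read from opposite strands. Promoter sequences, from 250 bases before to 50 after the RefSeq start, were at hand for 8 of the 10 genes, with 2 starts for Cyp2c39. The promoters of Cyp2c38 and Cyp2c39 are shown because these genes differed in the same direction under CR, that of Cyp2c29 because it resembles both while its gene was not called, and that of Cyp2c70 because its gene was the most abundant one called on the LF diet. Capitals mark the motif CAAAGTCNA, a core that HNF4 alpha binds, searched on both strands, and each sequence runs 5′ to 3′ on the strand of its gene.
Cyp2c38 promoter (chr19:39463026-39463325, minus strand): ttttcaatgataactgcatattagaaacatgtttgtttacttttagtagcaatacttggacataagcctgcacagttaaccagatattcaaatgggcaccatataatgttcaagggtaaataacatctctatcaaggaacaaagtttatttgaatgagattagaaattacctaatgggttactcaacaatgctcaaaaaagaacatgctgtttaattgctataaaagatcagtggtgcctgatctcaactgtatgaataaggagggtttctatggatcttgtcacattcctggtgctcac
Cyp2c39 promoter, start 2 (chr19:39510572-39510871, plus strand): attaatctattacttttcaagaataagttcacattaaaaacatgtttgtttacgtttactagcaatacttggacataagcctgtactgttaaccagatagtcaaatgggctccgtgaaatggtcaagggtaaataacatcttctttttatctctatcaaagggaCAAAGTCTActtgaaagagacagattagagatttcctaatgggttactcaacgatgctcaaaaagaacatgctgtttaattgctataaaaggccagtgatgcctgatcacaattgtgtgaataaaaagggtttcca
Cyp2c29 promoter (chr19:39286835-39287134, plus strand): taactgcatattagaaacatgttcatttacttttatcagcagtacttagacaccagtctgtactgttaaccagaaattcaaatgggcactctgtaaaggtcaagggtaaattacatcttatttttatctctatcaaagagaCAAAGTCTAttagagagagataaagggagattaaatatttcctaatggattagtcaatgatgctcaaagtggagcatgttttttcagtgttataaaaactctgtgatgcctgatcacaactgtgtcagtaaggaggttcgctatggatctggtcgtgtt
Cyp2c70 promoter (chr19:40187237-40187536, minus strand): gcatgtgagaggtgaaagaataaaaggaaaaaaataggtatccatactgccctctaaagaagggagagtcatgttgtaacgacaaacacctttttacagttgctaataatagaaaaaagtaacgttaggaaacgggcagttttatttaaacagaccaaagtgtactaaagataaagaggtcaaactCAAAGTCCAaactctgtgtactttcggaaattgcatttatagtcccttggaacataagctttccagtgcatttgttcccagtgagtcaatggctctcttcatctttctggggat

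The Cyp2c38 window and that of Cyp2c39 start 2 were 88.2% identical over 271 aligned bases. Cyp2c29 was 81.3% identical to Cyp2c38 over 278 bases and 80.5% identical to Cyp2c39 start 2 over 277 bases. CAAAGTCNA was found in 6 of the 9 Cyp2c windows, those of Cyp2c29, Cyp2c37, both Cyp2c39 starts, Cyp2c40 and Cyp2c70, against 1.04% of 32841 windows of the same length over all genes. These letters were not in the windows of Cyp2c38, Cyp2c50 and Cyp2c55. The motif that STAT5 recognises, TTCNNNGAA, was in 0 of the 9 windows and in 8.3% of all windows. ATCAAT, the core bound by HNF6 (Onecut1), was in 3 of the 9, those of Cyp2c37, Cyp2c40 and Cyp2c50, and in 7.54% of all windows. The windows overlap in origin, since the genes arose by duplication, and a match is a run of letters and not a binding site.

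The libraries held an estimated 23430000 to 43710000 reads, judged from the steps between low values, since the deposited file gives no counts. All 10 hepatocyte markers passed the filter on low values described below, although Alb was listed at 0 in 14 libraries. It was at 30400 RPKM in HF 1 and 30800 to 33220 RPKM in the HF+Ex libraries, and passed through these alone. The cause of the zeros was not tested. Among 12 pancreatic acinar markers, all 12 reached 1 RPKM in HF+CR 1 and LF+CR 1 and 8 did so in LF+Ex 1, with summed levels of 312.3, 2037 and 32.1 RPKM, against at most 1 marker and 3.56 RPKM in each other library. The 9 bile duct markers summed to 174.6 RPKM in HF+CR 3 and 155.4 in LF 2, against 20.2 to 79.5 elsewhere, with Cftr below 0.1 RPKM in every library. Stellate cell markers were also highest in these 2 libraries, with sums of 164.7 RPKM in HF+CR 3 and 161.7 in LF 2, against 58.0 to 134.0 elsewhere. For the 10 Cyp2c genes, values without the libraries with pancreatic transcripts or with high bile duct markers are given where their removal ended a call, and the genes of the other lists below were tested on all 18 libraries only. In bulk tissue, fewer cells of a type and less RNA per cell cannot be told apart.

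The 10 genes spanned a wide range of abundance, given here as RPKM, which scales reads per length and per library. In LF livers Cyp2c29 was the most abundant at 411.9 ± 100 RPKM (mean ± SD, n = 3 libraries here and below). Its lowest LF library, at 316.1 RPKM, lay above the highest of the next gene, Cyp2c50, at 270.8 RPKM. Cyp2c50 (182.2 ± 80.5), Cyp2c37 (140.4 ± 49.1), Cyp2c44 (83.1 ± 33.8), Cyp2c54 (62.0 ± 33.2), Cyp2c38 (48.4 ± 18.8) and Cyp2c70 (45.1 ± 27.7) followed, and each overlapped with its neighbour in that order. Cyp2c40, Cyp2c39 and Cyp2c55 formed a low tier at 1.54 ± 0.99, 1.496 ± 0.417 and 1.22 ± 0.99 RPKM, which overlapped among themselves and lay below every Cyp2c70 value of the LF group. The order of the group means shifted between groups. In HF+CR livers Cyp2c44 was next after Cyp2c29 and Cyp2c50, at 159.9 ± 10.5 RPKM, and in LF+CR livers Cyp2c70 followed Cyp2c29, Cyp2c37 and Cyp2c50, at 144.3 ± 17.1 RPKM. These ranges overlapped too, Cyp2c44 with Cyp2c50 and Cyp2c37 in HF+CR and Cyp2c70 with Cyp2c50 in LF+CR livers. Cyp2c37 was above Cyp2c44 in HF+CR 1 and HF+CR 2, at 186.2 and 182.9 against 151.3 and 171.6 RPKM. Cyp2c29 kept the highest mean in each of the 6 groups, with Cyp2c50 overlapping it in HF+CR and HF livers.

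**Figure D1:**
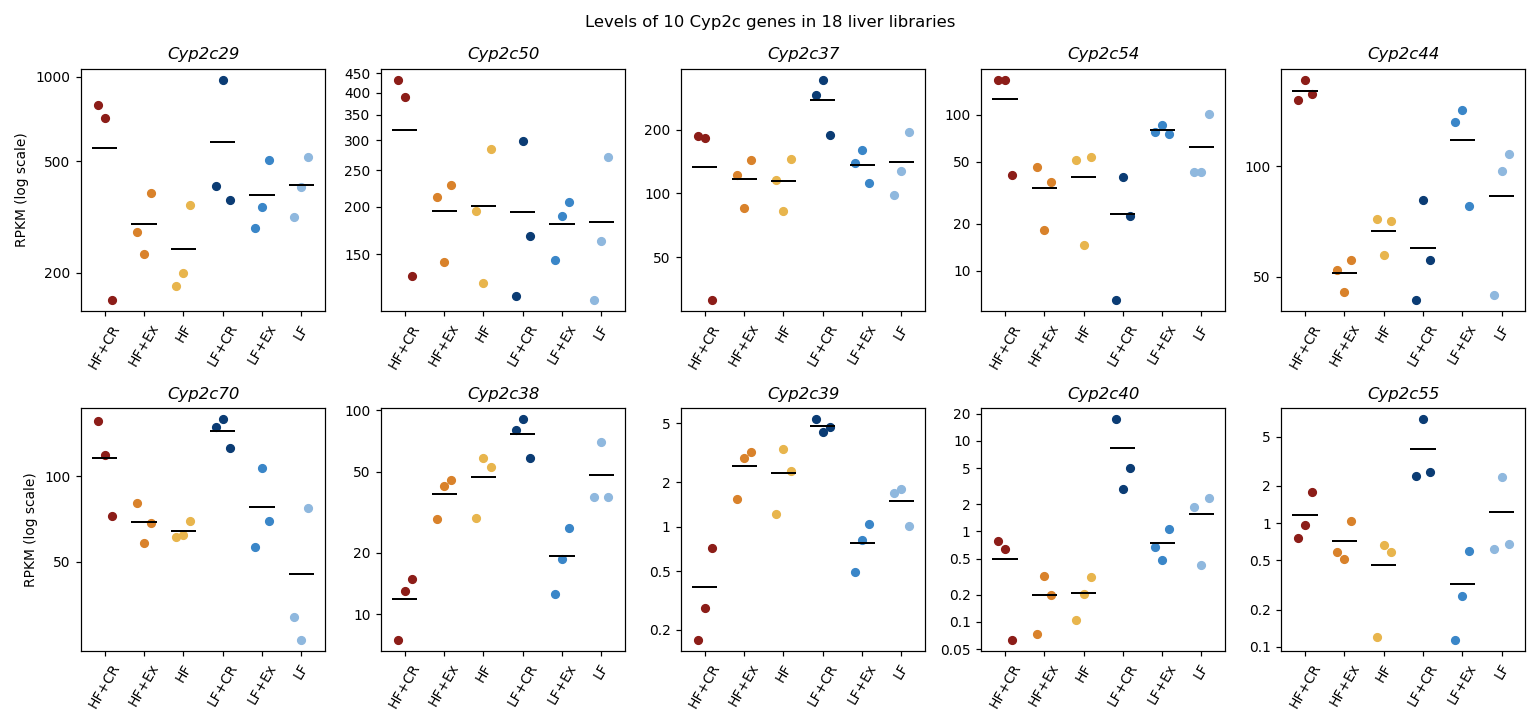
RPKM on a log axis for each of the 10 genes in the 3 libraries (points, replicates 1 to 3 from left to right) of each group, with the group mean as a line; each panel has its own axis range. Cyp2c38 and Cyp2c39 were lowest in HF+CR and highest in LF+CR livers, Cyp2c54 had the reverse order, and HF+CR 3 lay far below the other 2 HF+CR libraries for Cyp2c29, Cyp2c37, Cyp2c50 and Cyp2c54.

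The summed level of the 10 genes was 1421 ± 706 RPKM in HF+CR, 807 ± 171 in HF+Ex and 778.3 ± 222 in HF livers, and 1372 ± 549.6 in LF+CR, 990.9 ± 122.1 in LF+Ex and 977.4 ± 311.4 in LF livers. The HF+CR sum ran from 609.8 to 1897 RPKM and overlapped with the 603.3 to 1028 RPKM of HF livers. Most of that spread came from the abundant members in HF+CR 3, the library with high bile duct markers, and the part of those markers in the low values was not tested.

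Because the members are paralogs, reads can be assigned to more than 1 of them. Of the 50-base windows of the Cyp2c40 transcript, 72.1% also occurred in another Cyp2c transcript, the closest being Cyp2c69. Cyp2c50, Cyp2c37 and Cyp2c54 shared 30.7%, 30.1% and 25.7% of their windows, mainly with each other, and were 94.8% to 95.8% identical. Cyp2c39 shared 11.4% and Cyp2c38 7.45%, mainly with each other, at 93.8% identity. Cyp2c29 shared 2.08% and Cyp2c55 0.514%, and Cyp2c70 and Cyp2c44 shared none. Values of Cyp2c40 and the division among Cyp2c37, Cyp2c50 and Cyp2c54 are therefore uncertain, whereas Cyp2c70 and Cyp2c44 had no such window.

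**Figure D2:**
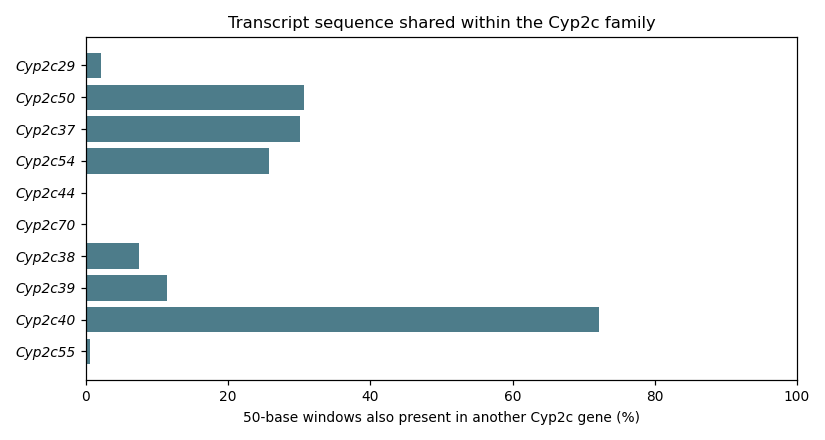
Percentage of all 50-base windows of each gene's transcript (GENCODE M21) that were also found in a transcript of another Cyp2c gene. The bar of Cyp2c40 reaches 72.1%, and Cyp2c44 and Cyp2c70 are at 0%.

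Differences were tested on log2(RPKM + 1) with limma over all 18 libraries, with Benjamini-Hochberg adjustment over the 10356 genes that reached at least 1 RPKM in at least 3 libraries, and a gene is called at an adjusted p under 0.05. All 10 members passed this filter, though Cyp2c40 and Cyp2c55 reached 1 RPKM in 6 libraries each and Cyp2c39 in 13. For Cyp2c40 all of these were on the LF diet, so the filter kept it through the groups where it is high. For Cyp2c55 they were the LF+CR libraries, LF 2, HF+CR 3 and HF+Ex 3, and for Cyp2c39 they came from every group but HF+CR. Calls of these genes set groups where they are high against groups near or below 1 RPKM. Fold differences on this scale understate changes of genes near 1 RPKM, and ratios of mean RPKM are given beside the called differences of the low members. In LF+CR against LF livers, 3 members were higher and 0 lower, Cyp2c39, Cyp2c40 and Cyp2c70, where 6.5% of all genes were called in either direction. The median difference of the 10 members was 0.83, against 0.00 over all genes tested. In HF+CR against HF livers, 2 members were lower, Cyp2c38 and Cyp2c39, and 1 was higher, Cyp2c44, where 1.4% of all genes were called. The members' median was 0.56, against 0.01 over all genes.

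Between HF+CR and LF+CR livers 6 members were called, the largest number of the comparisons made, where 9.78% of all genes were called. Cyp2c38, Cyp2c39, Cyp2c40 and Cyp2c55 were lower in HF+CR livers and Cyp2c44 and Cyp2c54 were higher, and the members' median was -0.74, against 0.00 over all genes. This comparison shares its LF+CR libraries with that of LF+CR and LF, and its HF+CR libraries with that of HF+CR and HF. HF+Ex against LF+Ex livers gave 2 calls, Cyp2c39 higher and Cyp2c44 lower, where 5.15% of all genes were called. No member was called in HF against LF livers by limma (0.406% of all genes were, and 1 member had an unadjusted p under 0.05). Ex gave no called gene on either diet, 0% of all genes. At an unadjusted p under 0.05 there were 2 members and 944 genes in LF+Ex against LF livers, and 0 members and 377 genes in HF+Ex against HF livers. The difference between the CR effects on the HF and LF diets was called for 2 members, Cyp2c38 and Cyp2c39, and for 1.02% of all genes. That between the Ex effects was called for 0% of all genes, with 2 members and 525 genes at an unadjusted p under 0.05.

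**Figure D3:**
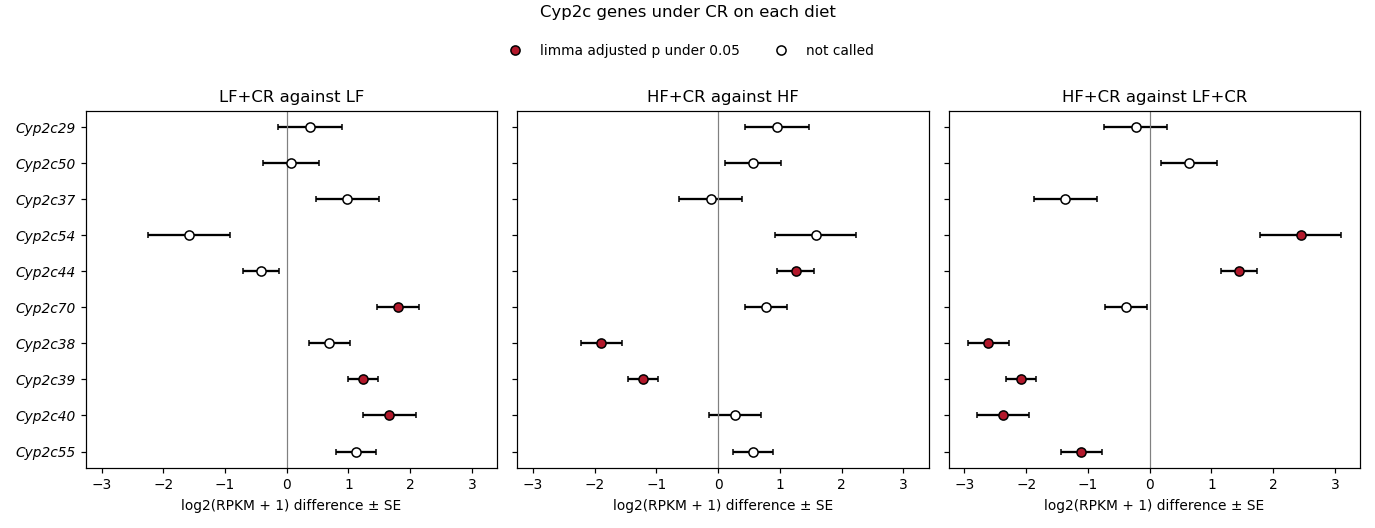
Differences of log2(RPKM + 1) with standard errors from limma for the 10 genes, with LF+CR against LF livers on the left, HF+CR against HF livers in the middle and HF+CR against LF+CR livers on the right. Filled points passed an adjusted p of 0.05. Cyp2c38 and Cyp2c39 lie right of 0 in the left panel and left of 0 in the other 2, and Cyp2c54 and Cyp2c44 lie the other way.

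Cyp2c38, an arachidonate epoxygenase gene, had 7.51, 13.01 and 14.99 RPKM in HF+CR livers, 29.4, 42.3 and 45.3 in HF+Ex livers and 29.7, 58.3 and 52.7 in HF livers. On the LF diet it had 80.2, 90.1 and 58.7 RPKM in LF+CR livers, 12.6, 18.6 and 26.5 in LF+Ex livers and 37.5, 70.1 and 37.5 in LF livers. The 3 HF+CR libraries lay below all HF libraries, and the LF+CR and LF ranges overlapped. Cyp2c38 was lower in HF+CR than in HF livers, with a log2 difference of -1.89 ± 0.33 (SE, limma adjusted p = 0.0168, ratio of means 0.252). It was 0.69 ± 0.33 above LF in LF+CR livers, which did not pass the test (adjusted p = 0.236). The difference between these CR effects was -2.58 ± 0.47 (adjusted p = 0.0136), and that between HF+CR and LF+CR livers was -2.62 ± 0.33 (adjusted p = 0.000267).

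Cyp2c39, the close neighbour of Cyp2c38, had 0.172, 0.281 and 0.714 RPKM in HF+CR livers, 1.54, 2.93 and 3.22 in HF+Ex livers and 1.22, 3.33 and 2.38 in HF livers. On the LF diet it had 5.31, 4.38 and 4.72 RPKM in LF+CR livers, 0.491, 0.806 and 1.04 in LF+Ex livers and 1.68, 1.78 and 1.02 in LF livers. Under CR no library overlapped with its control group on either diet, below HF in HF+CR and above LF in LF+CR. The log2 difference was -1.22 ± 0.24 in HF+CR against HF livers (adjusted p = 0.0230, ratio of means 0.168) and 1.23 ± 0.24 in LF+CR against LF livers (adjusted p = 0.00825, ratio 3.21). The difference between the CR effects was -2.45 ± 0.34 (adjusted p = 0.00307), and HF+CR livers lay 2.08 below LF+CR livers, at -2.08 ± 0.24 (adjusted p = 0.000144, ratio 0.0809).

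Cyp2c39 was also higher in HF+Ex than in LF+Ex livers, by 0.98 ± 0.24 (adjusted p = 0.0336, ratio of means 3.29). This call was lost without the libraries with pancreatic transcripts (0.86, adjusted p = 0.176), with no filter on low values (adjusted p = 0.0512), and when LF+Ex 1, LF+Ex 2, HF+Ex 2 or HF+Ex 3 was left out (adjusted p of 0.103 to 0.136). It was thus lost in 6 of 25 alternatives. Cyp2c38 had a difference of 1.02 ± 0.33 there, with groups that did not overlap and an adjusted p of 0.0846. In the same comparison 1 of 8 macrophage, 1 of 10 stellate and 1 of 3 lymphocyte markers tested were higher, with median log2 differences of 0.54, 0.73 and 1.11. At an unadjusted p under 0.05 these counts were 4, 5 and 2. Of 10 hepatocyte markers 4 were lower, with a median of -0.52 and 7 at an unadjusted p under 0.05. The 1 that was higher was Alb, listed at 0 in LF+Ex livers. Of 15 periportal markers 2 were lower, and of 15 pericentral markers 1 was higher. The part of these cell types and zones in the Cyp2c values was not tested. Cyp2c39 made up 2.11% to 4.55% of the summed RPKM of the 2 genes in HF+CR livers and 4.64% to 7.45% in LF+CR livers, and its RPKM was a small fraction of that of Cyp2c38 in every library. The part of shared reads in that likeness was not tested.

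Leaving out the 3 libraries with pancreatic transcripts left 2 libraries in each CR group. In HF+CR against HF livers Cyp2c38 was then at -1.62 (adjusted p = 0.0854) and Cyp2c39 at -1.10 (adjusted p = 0.149), and Cyp2c39 in LF+CR against LF livers was at 1.17 (adjusted p = 0.0552). The difference between CR effects was -2.27 for Cyp2c38 (adjusted p = 0.0918) and remained called for Cyp2c39 at -2.27 (adjusted p = 0.0316). The comparison of HF+CR with HF livers also rested on single libraries. Removing HF 2, HF 3 or HF+CR 1 left Cyp2c38 at -1.71, -1.78 and -1.62 and Cyp2c39 at -0.997, -1.18 and -1.10, none of them called, and Cyp2c39 was at -1.17 and not called without HF+CR 2.

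Cyp2c44, an epoxygenase outside the cluster with no shared window, had 151.3, 171.6 and 156.9 RPKM in HF+CR livers, 52.1, 45.5 and 55.7 in HF+Ex livers and 71.8, 57.5 and 70.7 in HF livers. On the LF diet it had 43.3, 80.7 and 55.6 RPKM in LF+CR livers, 131.9, 141.9 and 78.1 in LF+Ex livers and 44.6, 97.0 and 107.8 in LF livers. The 3 HF+CR libraries were the highest of all 18 and agreed closely, including HF+CR 3, where other abundant members were low. Cyp2c44 was higher in HF+CR than in HF livers by 1.26 ± 0.29 (adjusted p = 0.0496, ratio of means 2.40), and this call was lost in 18 of 25 alternatives while the difference stayed between 1.15 and 1.31. Among them were the fits without the libraries with pancreatic transcripts (1.29, adjusted p = 0.160) and without those with high bile duct markers (1.27, adjusted p = 0.0527). It was higher in HF+CR than in LF+CR livers by 1.45 ± 0.29 (adjusted p = 0.00657), which was lost only without the libraries with pancreatic transcripts (1.28, adjusted p = 0.126). In HF+Ex livers it was lower than in LF+Ex livers, at -1.14 ± 0.29 (adjusted p = 0.0388), where LF+Ex 1 is 1 of the libraries with pancreatic transcripts, and without these the difference was -1.03 (adjusted p = 0.174). This call held in 18 of 25 alternatives, and in 13 of the 18 fits that left out 1 library. The difference between the CR effects on the 2 diets was 1.67 ± 0.42 and did not pass the test (adjusted p = 0.0760).

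Cyp2c54, an epoxygenase of the group with Cyp2c37 and Cyp2c50, had 167.4, 166.3 and 41.0 RPKM in HF+CR livers, 46.3, 18.2 and 36.9 in HF+Ex livers and 50.9, 14.7 and 53.6 in HF livers. Its LF-diet values were 6.50, 40.1 and 22.5 RPKM in LF+CR livers, 77.8, 85.6 and 74.7 in LF+Ex livers and 42.7, 43.0 and 100.3 in LF livers. HF+CR 3 stood apart from the other HF+CR libraries, LF+CR 1 was the lowest of all, and the HF+CR and LF+CR ranges were separated by less than 1 RPKM. Cyp2c54 was higher in HF+CR than in LF+CR livers by 2.45 ± 0.66 (adjusted p = 0.0285, ratio of means 5.42). The value was 1.77 without LF+CR 1 and 1.43 without the libraries with pancreatic transcripts, and neither was called (adjusted p = 0.146 and 0.394). The call was also lost without HF+CR 1, without HF+CR 2 and with no filter, and so held in 20 of 25 alternatives. The differences under CR within a diet were 1.58 ± 0.66 in HF+CR against HF livers (adjusted p = 0.282) and -1.58 ± 0.66 in LF+CR against LF livers (adjusted p = 0.169), neither of which passed. The difference between these CR effects was 3.16 ± 0.93 (adjusted p = 0.147), and it was called without HF+CR 3 at 3.83 (adjusted p = 0.0338).

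Since Cyp2c37, Cyp2c50 and Cyp2c54 share sequence, their division is given as a share of their summed RPKM, with no test. The shares use 1 RefSeq row per gene. Cyp2c50 has 3 rows, and the row used held 81.4% of their summed mean RPKM. Another of its rows ran from 5.81 RPKM in HF+CR 3 to 62.8 RPKM in LF+Ex 2. The Cyp2c50 shares are therefore those of the row used and leave out part of its signal. Cyp2c54 held 20.2%, 21.3% and 22.5% of the sum in the HF+CR libraries, 7.41% to 12.2% in HF+Ex and 6.58% to 14.1% in HF livers. It held 1.57%, 5.88% and 5.95% in the LF+CR libraries, 19.1% to 21.5% in LF+Ex and 12.9% to 17.7% in LF livers. HF+CR 3 was low for the sum, at 203.4 RPKM against 739.9 and 787 RPKM in the other HF+CR libraries, with a Cyp2c54 share of 20.2%, against 21.3% and 22.5% in the others. Cyp2c37 had the smaller share in HF+CR livers, with 21.3% ± 5.1 of the sum in HF+CR and 56.9% ± 11.7 in LF+CR livers, and 33.1% ± 3.7 in HF and 37.2% ± 2.4 in LF livers. Cyp2c50 held 57.4% ± 6.2 in HF+CR and 38.6% ± 9.2 in LF+CR livers, and 56.3% ± 2.4 in HF and 47.0% ± 2.2 in LF livers.

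**Figure D4:**
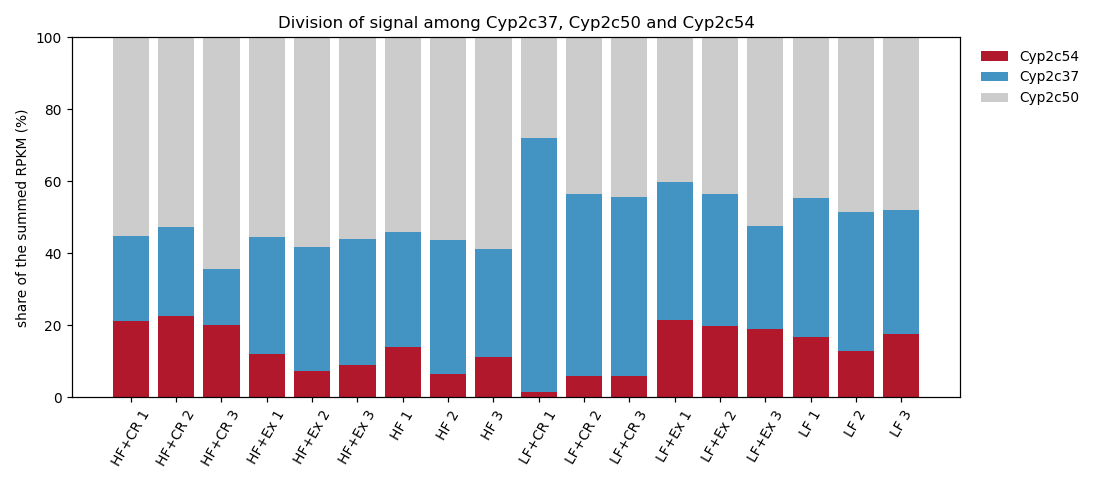
Stacked bars of the percentage of the summed RPKM of Cyp2c37, Cyp2c50 and Cyp2c54 held by each gene, for each of the 18 libraries. The Cyp2c54 segment is 20.2% to 22.5% in HF+CR livers and 1.57% to 5.95% in LF+CR livers.

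Cyp2c40, which makes hydroxy acids from arachidonate and shares most of its 50-base windows with other Cyp2c genes, had 0.775, 0.633 and 0.0636 RPKM in HF+CR livers, 0.0744, 0.321 and 0.198 in HF+Ex livers and 0.105, 0.202 and 0.314 in HF livers. Among LF-diet livers it had 17.3, 2.91 and 5.03 RPKM in LF+CR livers, 0.677, 0.483 and 1.07 in LF+Ex livers and 1.85, 0.429 and 2.34 in LF livers. Every HF-diet library was below 1 RPKM, every LF+CR library was above every other library, and LF+CR 1, the library with most pancreatic transcripts, was the highest. Cyp2c69, its closest paralog, was also highest in LF+CR 1, at 5.73 RPKM, and at 0.644 RPKM or less in every other library. Cyp2c40 was higher in LF+CR than in LF livers by 1.66 ± 0.43 (adjusted p = 0.0315, ratio of means 5.46), and without LF+CR 1 the difference was 1.03 and not called (adjusted p = 0.106). The call was also lost without the libraries with high bile duct markers (1.29, adjusted p = 0.0859) and without those with pancreatic transcripts (1.03, adjusted p = 0.136). A pseudocount of 0.1 or no filter ended it too (adjusted p = 0.0845 and 0.0546), as did leaving out LF 1 or LF 2 (adjusted p = 0.0699 and 0.101). The call thus held in 18 of 25 alternatives. Cyp2c40 was lower in HF+CR than in LF+CR livers, at -2.38 ± 0.43 (adjusted p = 0.00304, ratio 0.0584). This call held in all 25 alternatives with values of -3.77 to -1.74. The filter kept Cyp2c40 through LF-diet libraries alone, so a test against an HF-diet group draws on the side that passed it. No alternative changed the assignment of reads from the shared windows, so the alternatives say nothing about that uncertainty. In HF against LF livers the groups did not overlap, at -0.99 ± 0.43 (ratio of means 0.134), but the adjusted p was 0.256.

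Cyp2c55, a gene induced through PXR in the gut, had 0.753, 0.964 and 1.77 RPKM in HF+CR livers, 0.584, 0.510 and 1.04 in HF+Ex livers and 0.120, 0.670 and 0.581 in HF livers. On the LF diet it had 2.38, 6.87 and 2.57 RPKM in LF+CR livers, 0.114, 0.258 and 0.592 in LF+Ex livers and 0.622, 2.37 and 0.676 in LF livers. LF+CR livers were the highest, led by LF+CR 2, and the lowest LF+CR library was barely above the highest LF library. Cyp2c55 was lower in HF+CR than in LF+CR livers, at -1.11 ± 0.33 (adjusted p = 0.0456, ratio of means 0.295), a call lost in 14 of 25 alternatives. It was -0.71 without LF+CR 2 (adjusted p = 0.191) and -1.19 without the libraries with pancreatic transcripts (adjusted p = 0.197). In LF+CR against LF livers its difference of 1.12 ± 0.33 narrowly missed the threshold (adjusted p = 0.0541, ratio 3.23), and without the 2 libraries with high bile duct markers it was 1.47 (adjusted p = 0.0140).

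Cyp2c70, the muricholic acid enzyme, had 156.1, 119.1 and 72.3 RPKM in HF+CR livers, 80.5, 58.3 and 68.7 in HF+Ex livers and 60.8, 61.9 and 69.7 in HF livers. In the LF-diet groups it had 149.1, 158.5 and 125.4 RPKM in LF+CR livers, 56.4, 107.3 and 69.3 in LF+Ex livers and 31.9, 26.5 and 77.0 in LF livers. Every CR library lay above every library of its own diet's control group, with HF+CR 3 just above HF 3. Cyp2c70 was higher in LF+CR than in LF livers by 1.81 ± 0.34 (adjusted p = 0.00619, ratio of means 3.20), and the call held in all 25 alternatives, with differences of 1.51 to 2.27. The HF+CR difference from HF livers was 0.78 ± 0.34 and did not pass the test (adjusted p = 0.316, ratio 1.81). The difference between the CR effects on the 2 diets was -1.03 ± 0.48 (adjusted p = 0.417), so the data do not show that CR acted on Cyp2c70 differently on each diet. Cyp2c70 has no 50-base window in common with another Cyp2c gene.

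Cyp2c29, Cyp2c37 and Cyp2c50, the most abundant members, were called in no comparison with all 18 libraries. Without HF+CR 3, Cyp2c29 was called higher in HF+CR than in HF livers at 1.69 (adjusted p = 0.0353), and Cyp2c37 higher in LF+CR than in LF livers at 0.98 (adjusted p = 0.0490). Of the 2 libraries with high bile duct markers, only HF+CR 3 is in the HF+CR against HF comparison. Leaving out both thus repeats that removal for Cyp2c29, which was called at 1.69 (adjusted p = 0.0367). Cyp2c29, which is induced through CAR, averaged 554.6 ± 344.5 RPKM in HF+CR, 299.0 ± 78.5 in HF+Ex and 242.2 ± 93.3 in HF livers. It averaged 582.8 ± 341.8 RPKM in LF+CR, 378.9 ± 113.8 in LF+Ex and 411.9 ± 100 in LF livers. The CR groups had the highest means on both diets and also the widest spread, with 793.3, 710.8 and 159.7 RPKM in the HF+CR libraries and 408.5, 976.6 and 363.2 RPKM in the LF+CR libraries.

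Cyp2c37, which makes hydroxy acids and epoxides, averaged 133.5 ± 88.5 RPKM in HF+CR, 117.0 ± 29.8 in HF+Ex and 114.5 ± 31.2 in HF livers, and 275.2 ± 79.7 in LF+CR, 136.7 ± 24.2 in LF+Ex and 140.4 ± 49.1 in LF livers. Its HF+CR and LF+CR libraries did not overlap, at -1.37 ± 0.51 (adjusted p = 0.102). Cyp2c50, an epoxygenase, averaged 318.4 ± 163.7 RPKM in HF+CR, 194.5 ± 45.4 in HF+Ex and 201.2 ± 79.2 in HF livers, and 193.8 ± 93.7 in LF+CR, 179.9 ± 31.4 in LF+Ex and 182.2 ± 80.5 in LF livers. Its range over the 18 libraries was the narrowest of the 10, with the highest library 3.82 times the lowest, against 272-fold for Cyp2c40.

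Ex was set against the diet alone for each member. In LF+Ex against LF livers, Cyp2c38 had a difference of -1.28 ± 0.33 with no overlap, but an adjusted p of 0.469, and Cyp2c70 a difference of 0.88 ± 0.34 (adjusted p = 0.519). In HF+Ex against HF livers the differences of the 10 members lay between -0.37 for Cyp2c44 and 0.34 for Cyp2c29, with adjusted p-values of 1.

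Outside the 10 members, 6 further Cyp2c genes were in the table. Cyp2c65 and Cyp2c66 were listed at 0 in every library, and Cyp2c67 and Cyp2c68 passed the filter. Cyp2c68 was higher in LF+CR than in LF livers, at 151.1 ± 19.2 and 81.1 ± 15.7 RPKM (log2 difference of 0.90, adjusted p = 0.0114). It was lower in HF+CR than in LF+CR livers, at 73.6 ± 8.3 and 151.1 ± 19.2 RPKM (-1.03, adjusted p = 0.00349). Cyp2c67 was lower in HF+Ex than in LF+Ex livers, at 73.3 ± 11.6 and 145.1 ± 26.3 RPKM (-0.97, adjusted p = 0.0379). The windows that Cyp2c67 and Cyp2c68 share with other Cyp2c transcripts were not counted. The part of shared reads in their values was not tested.

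Genes that control or serve Cyp2c enzymes were taken from lists chosen by name. Of 6 electron donors and P450 partners, 0 were called under CR on either diet by limma (3 had an unadjusted p under 0.05 in LF+CR against LF and 0 in HF+CR against HF livers), and 2 were lower in HF+CR than in LF+CR livers. These were Por, the reductase, at 113.3 ± 47.4 RPKM in HF+CR and 343.1 ± 9.6 in LF+CR livers (adjusted p = 0.0130), and Pgrmc2, a heme-binding partner (-0.58, adjusted p = 0.0151). Pgrmc1 was higher in HF+Ex than in LF+Ex livers (0.49, adjusted p = 0.0288). Of 8 heme synthesis genes, 1 was lower in LF+CR than in LF livers, Cpox, at 19.4 ± 1.1 and 32.2 ± 1.3 RPKM (adjusted p = 0.0195), and 1 was higher and 1 lower in HF+CR than in LF+CR livers.

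Among 23 liver transcription factors, Nr1i3, which encodes CAR, was lower under CR on both diets. It had 45.7 ± 11.01 RPKM in HF+CR and 90.8 ± 8.5 in HF livers (-1.0 ± 0.18, adjusted p = 0.0173), and 54.3 ± 7.2 in LF+CR and 87.2 ± 16.5 in LF livers (-0.67 ± 0.18, adjusted p = 0.0378). In LF+CR livers Ppargc1a, a fasting coactivator, was higher than in LF livers (0.94, adjusted p = 0.0106). In HF+CR against LF+CR livers 3 of the 23 were lower, Hnf4a at 127.8 ± 2.2 and 183.1 ± 6.7 RPKM (adjusted p = 0.0149), Ppargc1a and Nr1i2. Hnf4a was also lower in HF+Ex than in LF+Ex livers (-0.53, adjusted p = 0.0257).

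Of 27 target genes of CAR and PXR, 4 were higher and 2 lower in LF+CR than in LF livers, with a median of 0.22, and 0 were called by limma in HF+CR against HF livers (6 at an unadjusted p under 0.05), with a median of -0.16. In HF+CR against LF+CR livers 2 were higher and 4 lower. Cyp2b10, the classic CAR target, had 0.706 ± 0.109 RPKM in HF+CR and 8.13 ± 4.21 in LF+CR livers (adjusted p = 0.00216), and in LF+CR livers it exceeded the 1.90 ± 0.79 RPKM of LF livers (adjusted p = 0.0291). Aldh1a1 was lower in LF+CR than in LF livers, at 338.0 ± 54.6 and 849.2 ± 26.4 RPKM (adjusted p = 0.00440). In HF+Ex against LF+Ex livers Cyp2b10 was the only 1 of the 27 called, and it was higher.

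Of 11 genes of growth hormone signalling and sex-specific control, Cux2, a repressor found mainly in female mouse liver, was at 0.0134 ± 0.0142 RPKM in HF+CR, 6.84 ± 2.22 in LF+CR and 0.220 ± 0.210 in LF livers. It reached 1 RPKM in the 3 LF+CR libraries and was at 0.462 RPKM or less in the other 15, so it passed the filter through LF+CR livers alone and no test is given for it. Stat5a was lower in LF+CR than in LF livers (adjusted p = 0.0301), and Ghr, the growth hormone receptor, was higher in HF+CR than in LF+CR livers (adjusted p = 0.0208).

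Of 8 P450 genes more abundant in female mouse liver, 5 were tested and 3 were lower in HF+CR than in LF+CR livers, Cyp2b13, Cyp2b9 and Cyp2a4. Cyp2b13 was at 0.0915 ± 0.141 RPKM in HF+CR and 11.8 ± 6.2 in HF livers, and at 33.5 ± 16.2 in LF+CR and 0.438 ± 0.371 in LF livers. It reached 1 RPKM in 9 libraries, all of LF+CR, HF and HF+Ex livers, and was at 0.785 RPKM or less in every other library. It thus passed the filter only through groups where it is high. Cyp2b13 is included in the counts of called genes, but no test is given for it. Of 5 P450 genes more abundant in male mouse liver, 5 were higher in HF+CR than in LF+CR livers, 4 were lower in LF+CR than in LF livers and 0 were called in HF+CR against HF livers by limma (1 at an unadjusted p under 0.05). Cyp4a12a was at 43.2 ± 24.4 RPKM in HF+CR and 2.09 ± 2.25 in LF+CR livers (adjusted p = 0.000404), and at 69.9 ± 37.6 RPKM in LF livers (adjusted p = 0.000242 for LF+CR against LF). In HF+Ex against LF+Ex livers 2 of the 5 female-biased genes tested were higher and 1 of the 5 male-biased genes was lower.

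Beside Cyp2c70, 20 genes of bile acid synthesis and transport were counted. In LF+CR against LF livers 3 were higher and 5 lower, with Cyp8b1, which makes cholic acid, at 21.7 ± 7.5 and 242.8 ± 91.5 RPKM (adjusted p = 0.00113), and Acox2 and Hsd3b7 lower too. None was called in HF+CR against HF livers by limma (4 at an unadjusted p under 0.05), and 6 were higher and 2 lower in HF+CR than in LF+CR livers, with Hsd3b7 at 289.6 ± 85.5 and 90.1 ± 13.3 RPKM (adjusted p = 0.000269). Of 32 other arachidonate genes, 23 were tested, and 0 were called by limma in LF+CR against LF livers (3 at an unadjusted p under 0.05), 1 lower in HF+CR than in HF livers (Ptges2) and 2 higher in HF+CR than in LF+CR livers. The last of these included Ephx2, the soluble epoxide hydrolase that acts on Cyp2c products, at 388.4 ± 99.6 and 242.3 ± 23.9 RPKM (adjusted p = 0.0407). Of 23 retinoid genes tested, 2 were higher and 3 lower in LF+CR than in LF livers, and 2 were higher and 4 lower in HF+CR than in LF+CR livers. Of 12 acute-phase genes, 3 were lower in LF+CR than in LF livers, 1 was lower in HF+CR than in HF livers, and 5 were higher in HF+Ex than in LF+Ex livers.

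Zonation markers were counted because several Cyp2c genes are expressed around the central vein. Of 15 pericentral markers tested, 0 were higher and 1 lower in LF+CR than in LF livers, and 0 were called in HF+CR against HF livers by limma (3 at an unadjusted p under 0.05). Of 15 periportal markers, 6 were higher and 1 lower in LF+CR than in LF livers, with Arg1 at 892.0 ± 15.5 and 423.7 ± 78.2 RPKM (adjusted p = 0.00152), and 2 were higher in HF+CR than in HF livers. In HF+CR against LF+CR livers 2 pericentral markers were higher, and 1 periportal marker was higher and 6 were lower. The summed pericentral level was 3757 to 7844 RPKM in HF+CR and 5916 to 7357 in HF livers, and 3008 to 5452 in LF+CR and 4963 to 6921 in LF livers. The part of zonation in the Cyp2c values was not tested.

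The genes whose pattern over the 18 libraries was most like that of a member were found by Pearson correlation of log2(RPKM + 1) among 10003 tested genes outside the family and are given as a description, since the libraries of a group share their treatment. For Cyp2c38 they included Slc16a7 (r = 0.93) and Slc22a27 (0.91), and for Cyp2c39 they were Slc22a27 (0.93), Pgam1 (0.89) and Cyp2b13 (0.88). Slc22a27 was thus named for both. For Cyp2c44 they were Serpina1a (0.92), Tshz2 (0.90) and Abca8a (0.90), and for Cyp2c54 they were Ugt2b1 (0.92), Abca8a (0.91) and Slc22a30 (0.90). For Cyp2c70 they were Nrn1 (0.88), Papss2 (0.87) and Uqcrb (0.85), and for Cyp2c40 they were Tecr (0.91), Acpp (0.91) and Pnpla3 (0.89). For Cyp2c55, Cyp2c29, Cyp2c37 and Cyp2c50 the first genes were Khdc4 (0.90), Cnot2 (0.90), Tapt1 (0.89) and Rgn (0.90).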

How the data were processed

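PolyA RNA of mouse liver was sequenced in 18 Illumina libraries, per the labels. The authors deposited RPKM per RefSeq transcript, made with TopHat 1.4.1 and Cufflinks 1.3.0 on mm10, per the submitters' processing notes. The annotation version, the read totals and the treatment of reads that match several paralogs are not given in the sources used here, and no counts were used. Of 30582 rows, 30003 were named through RefSeq for GRCm38.p6 and 180 through GENCODE M21, and 399 kept their identifier. The row with the highest mean stood for each gene. Groups came from sample titles.

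Values were tested as log2(RPKM + 1) with limma 3.58.1 in R 4.3.3 (6 group means, 12 residual degrees of freedom, trended variance, two-sided, Benjamini-Hochberg), for genes that 3 or more libraries held at 1 RPKM or more. The fit was tested on simulated data. The CR by diet and Ex by diet differences are contrasts of 4 groups, the treatment effect on the HF diet minus that on the LF diet. Alternatives were a pseudocount of 0.1, no filter, median-of-ratios scaling, summed rows, the replicate number as a block, and leaving out libraries. Transcript windows of 50 bases came from GENCODE M21, and promoters from RefSeq for GRCm38.p6. All 10 members are described. Per list and comparison, the called genes named were those of lowest adjusted p, 3 at most, and for likeness up to 3 genes with the highest correlation. The members and lists were chosen with earlier results of these data known, so they give no independent support. A few genes that these rules would name are not reported here.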

Additional observations from a re-analysis of the deposited data

Results flagged for a closer look

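The effect of CR differed between the diets for 2 of the 10 members by the test of that difference over 4 groups, where 1.02% of all genes were called. For Cyp2c38 the CR effect on the HF diet minus that on the LF diet was -2.58 (log2 scale, limma with Benjamini-Hochberg adjustment, adjusted p = 0.0136), with 3 of 3 HF+CR libraries below every HF library and 2 of 3 LF+CR libraries above every LF library. For Cyp2c39 it was -2.45 (adjusted p = 0.00307), with 3 of 3 HF+CR libraries below every HF library and 3 of 3 LF+CR libraries above every LF library. Without the libraries with pancreatic transcripts the difference was -2.27 for Cyp2c38 and not called (adjusted p = 0.0918), and -2.27 for Cyp2c39 and called (adjusted p = 0.0316). Both genes lie in the same stretch of chromosome 19, share 50-base windows with each other, and were compared on the same libraries, so they are not independent of each other.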

How the results depend on the processing

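No called difference changed sign under the 25 alternatives. Of 400 recomputed values for the 16 called differences, 331 kept their call and 69 lost it. Without the libraries with pancreatic transcripts (HF+CR 1, LF+CR 1 and LF+Ex 1) the number of members called was 1 in LF+CR against LF, 0 in HF+CR against HF, 3 in HF+CR against LF+CR, 0 in HF+Ex against LF+Ex and 1 for the CR by diet difference. Fewer libraries were then fitted. The share of all genes called was not counted for any alternative, so these and the following member counts cannot be told from a general change in calls. With no filter on low values 0 members were called in HF+Ex against LF+Ex, and the cause was not tested. Leaving out 1 library at a time gave 2 to 5 members in LF+CR against LF (5 without HF+CR 3), 0 to 3 in HF+CR against HF (0 without HF 2, HF 3 or HF+CR 1), 4 to 6 in HF+CR against LF+CR, 0 to 3 in HF+Ex against LF+Ex (0 without LF+Ex 1, LF+Ex 2, HF+Ex 2 or HF+Ex 3) and 2 to 3 for the CR by diet difference. The other comparisons stayed at 0. Cyp2c70 in LF+CR against LF, the CR by diet difference of Cyp2c39, and Cyp2c38, Cyp2c39 and Cyp2c40 in HF+CR against LF+CR kept their calls in all 25 alternatives. Of these genes, Cyp2c40 passed the filter through LF-diet libraries alone, and no alternative changed how reads of shared windows were assigned. Replicate numbers are not stated to pair the libraries. The correlation of deviations in 45 same-numbered pairs had a median of 0.004 and ran from -0.49 to 0.32. In 90 pairs with different numbers the median was -0.002 and the range -0.39 to 0.44. With 3 libraries a group, these values cannot show whether the libraries were paired. With the replicate number as a block, 1 called difference was lost, Cyp2c44 in HF+CR against HF (1.26, adjusted p = 0.0639), and the members called numbered 4 in LF+CR against LF, 2 in HF+CR against HF, 6 in HF+CR against LF+CR and 3 in HF+Ex against LF+Ex. The depth behind single values is only estimated, so no counting error is given for them.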
